A study of Mus musculus with 4 samples.

Results

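The smooth muscle contractile genes described here are 9 genes taken by symbol from the 17721 genes of the deposited table: Acta2, Tagln, Myh11, Cnn1, Smtn, Mylk, Des, Actg2 and Myl9. All 9 were found, each in a single row. They were measured by RNA-seq in back skin of C57BL/6 mice at postnatal day 63, after treatment with dispase, a protease used to lift epidermis off dermis. There were 2 libraries from wild type mice and 2 from LDB2-/- mice, by label without Ldb2, the gene of an adaptor of LIM domain transcription factors. The design text calls the material epidermal lysate. How the LDB2-/- allele was made, and whether libraries came from single or pooled animals, is not given in the sources used here, so the p-values below measure only the spread between these libraries. As background, smooth muscle shortens when calcium-bound calmodulin activates myosin light chain kinase, which phosphorylates the regulatory light chain and lets smooth muscle myosin pull on actin filaments. In skin these genes are known from the arrector pili muscle, the dermal sheath that wraps the hair follicle, and the walls of vessels. Several of them, such as Acta2 and Tagln, are also known targets of the transcription factor SRF outside mature smooth muscle, while Myh11 is the most restricted of the set.

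A short sequence search shows where the set carries the element that SRF binds, the CArG box. RefSeq promoters (GRCm38.p6) were matched for 6 of the 9 genes: Acta2, Cnn1, Smtn, Mylk, Des and Myl9. In the 250 bases before the annotated start, a CArG box was found in 1 of these 6, Myl9, against 1.62% of the 27025 genes with a RefSeq promoter entry. Allowing 1 G or C in the A/T core, Myl9 and Acta2 held it, against 9.78% of all genes. The motif is its own reverse complement in form, so both strands are covered. The 4 sites shown are all the matches found in these windows. Each is given 5′ to 3′ on the strand of the gene, with the box in capitals. The first of each pair is the farther from the start.
Acta2, chr19:34255438-34255467, minus strand: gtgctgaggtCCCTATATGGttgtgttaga
Acta2, chr19:34255388-34255417, minus strand: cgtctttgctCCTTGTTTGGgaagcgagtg
Myl9, chr2:156775293-156775322, plus strand: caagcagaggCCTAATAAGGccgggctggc
Myl9, chr2:156775355-156775384, plus strand: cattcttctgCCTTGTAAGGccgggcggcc
Only the upper Myl9 box has an unbroken A/T core. The others have 1 G or C in it, as the CArG boxes of Acta2 are known to have. The Acta2 boxes lie 84 to 75 and 34 to 25 bases before the start that the RefSeq promoter entry uses. They fall inside the Acta2 locus given below and inside an untranslated exon of the GENCODE annotation, both of which begin farther upstream. The Myl9 boxes lie 161 to 152 and 99 to 90 bases before the start, outside the annotated exons. No match was found in the windows of Cnn1, Smtn, Mylk and Des, which says only that these letters are not there. The Mylk window (chromosome 16, 34784700 to 34784949) lies inside the locus given below, before the start that the RefSeq entry uses.

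Total counts ran from 54095522 to 68436842 per library. The edgeR quasi-likelihood test covered the 12400 genes with an FPKM (sequenced fragments relative to transcript length and library total) of 1 or more in at least 2 libraries, scaled by TMM, edgeR's correction for library composition. At a Benjamini-Hochberg adjusted p under 0.05 it called 57.2% of them, of which 3521 were higher and 3576 lower in the knockout libraries. With libraries scaled by their total alone, 2248 were higher and 5096 lower. Ldb2 cannot check the genotype labels, having 0 and 8 counts in wild type libraries 1 and 2 against 0 and 0 in LDB2-/-. As a check of the labelled tissue, Krt14, a keratin of basal epidermis, lay at 5676 and 5098 FPKM in wild type libraries 1 and 2 and at 2346 and 2274 in LDB2-/-. Calls are read below against that broad background.

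The contractile genes differed widely in level. Acta2, Tagln, Smtn and Myl9 were far higher in LDB2-/- and lay between 15.9 and 67.7 FPKM there. Mylk stayed near 1 FPKM in both genotypes. Des, Cnn1, Actg2 and Myh11, the last of which encodes the myosin heavy chain that defines smooth muscle, were under 1 FPKM in every library. The label of the set is therefore not borne out by Myh11, its most restricted marker, which was at 0 counts in wild type and at 12 and 27 counts in LDB2-/-. Both LDB2-/- libraries lay above both wild type libraries in FPKM for 8 of the 9 genes and below them for Mylk. Over all genes the genotypes did not overlap in 74%, with LDB2-/- the higher in 24.8%.

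Of the 5 contractile genes that passed the expression filter, 4 rose and 1 was not called, against 28.4% of tested genes called higher and 28.8% called lower. Tagln passed that filter only through its LDB2-/- libraries and Mylk only through wild type, so the count of tested genes is not independent of the outcome. Without the filter, 6 of 9 were called higher and none lower, where 40.8% of 17721 genes were called, 19.7% higher and 21.1% lower. By the values of the authors' deposited table, 7 of 9 were higher at an adjusted p under 0.05, the exceptions being Actg2 and Mylk, where 47.6% of genes were past that threshold, 23.5% higher. In bulk RNA a change in the number of cells of a type and a change in RNA per cell cannot be told apart.

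**Figure D1:**
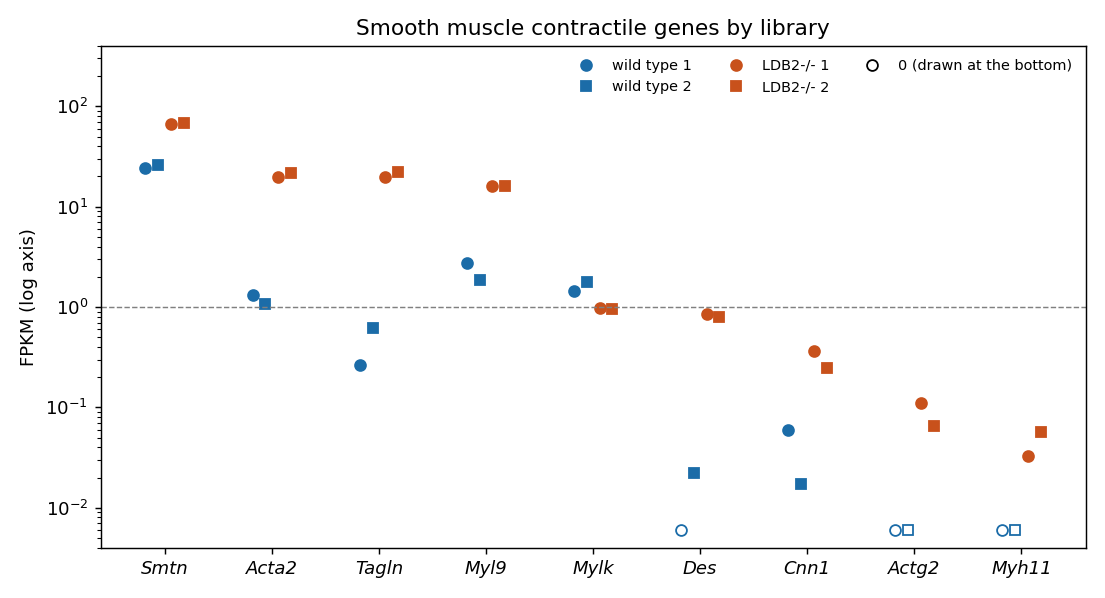
FPKM of the 9 contractile genes on a log axis, with 1 point per library (blue, wild type; orange, LDB2-/-; circles, library 1; squares, library 2; open symbols, 0). Smtn, Acta2, Tagln and Myl9 lie well above the dashed line at 1 FPKM in LDB2-/-, and Des, Cnn1, Actg2 and Myh11 lie below it in every library.

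Among the thin filament genes, Acta2 (gene ID 11475, chromosome 19, 34240336 to 34255585, GRCm38, protein coding), the smooth muscle alpha-actin, was at 1.31 and 1.08 FPKM in wild type libraries 1 and 2 and at 19.8 and 21.6 in LDB2-/-. These levels rested on 230 and 163 counts in wild type against 2793 and 3876 in LDB2-/-. The genotypes did not overlap, and each pair of libraries lay close together. Acta2 rose by 4.43 log2 units (SE 0.18, edgeR adjusted p = 8.65e-05), a 21.6-fold change of TMM-scaled counts, where 2.44% of tested genes had a larger log2 fold change. The ratio of mean FPKM, which carries no TMM scaling, was 17.3.

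Tagln (gene ID 21345, chromosome 9, 45929628 to 45936058), whose product transgelin binds actin filaments, had the largest log2 fold change of the tested contractile genes. It was at 0.26 and 0.61 FPKM in wild type against 19.9 and 22.3 in LDB2-/-, from 29, 57, 1730 and 2462 counts. The wild type libraries differed from each other by more than those of Acta2, with library 2 the higher. Tagln rose by 5.91 log2 units (SE 0.40, adjusted p = 0.000235), and by 5.43 or 6.60 when wild type replicate 1 or 2, in that order, was left out. The Tagln locus overlaps that of the protease gene Pcsk7 over 2480 bases, and whether counting used strand is not given in the sources used here. Pcsk7 had 2939 and 2762 counts in wild type against 2263 and 2278 in LDB2-/-, before any scaling.

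Cnn1 (gene ID 12797, chromosome 9, 22099221 to 22109221) encodes calponin 1, an inhibitor of the myosin ATPase on actin, and was low throughout. It had 8 and 3 counts in wild type against 40 and 35 in LDB2-/-, or 0.059, 0.017, 0.36 and 0.25 FPKM. The 8.67-fold ratio of scaled counts had an exact 95% interval of 4.58 to 18.1, for counting error only. In the edgeR fit without the filter Cnn1 was not called (log2 fold change 3.11, SE 1.03, adjusted p = 0.060, with 0.0124 to 0.295 over the alternatives), although it was in the authors' deposited table (fold change 8.89, adjusted p = 0.0203). It was called without LDB2-/- replicate 2 (adjusted p = 0.0449).

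Smtn (gene ID 29856, chromosome 11, 3517522 to 3539292), the gene of smoothelin, a cytoskeletal protein of contractile smooth muscle cells, was the most abundant of the set per length. Its level was 24.5 and 26.0 FPKM in wild type against 66.4 and 67.7 in LDB2-/-, from 5598, 5068, 12174 and 15730 counts. Replicates differed by little beside the gap between genotypes. Smtn rose by 1.73 log2 units (SE 0.11, adjusted p = 0.000189), a 3.31-fold change and the smallest of the 4 called. It made up 80.9% and 82.9% of the summed FPKM of the 9 genes there and 53.3% and 52.2% in LDB2-/-.

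Of the myosin genes, Myl9 (gene ID 98932, chromosome 2, 156775408 to 156781657), the regulatory light chain of smooth muscle and non-muscle myosin, was at 2.74 and 1.87 FPKM in wild type against 16.3 and 15.9 in LDB2-/-. The counts were 203, 119, 968 and 1202. Myl9 rose by 3.11 log2 units (SE 0.26, adjusted p = 0.000461), or 8.65-fold. The genotypes did not overlap, and the LDB2-/- libraries differed from each other less than the wild type libraries did.

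Myh11 (gene ID 17880, chromosome 16, 14194527 to 14292188), the smooth muscle myosin heavy chain, had 0 and 0 counts in wild type against 12 and 27 in LDB2-/-. Against 3 counts over the wild type group, the limit that a count of 0 allows, it was at least 16.5-fold higher in LDB2-/-. The exact 95% limit, which also covers the counting error of the LDB2-/- counts, was at least 12.8-fold. Both bounds are for counting error only and leave out the spread between libraries. In LDB2-/- Myh11 reached 0.033 and 0.056 FPKM. That was 0.167% and 0.260% of the FPKM of Acta2 in the same libraries. The edgeR fit without the filter called it (adjusted p = 0.0443), a call lost without wild type replicate 1 or 2 (adjusted p = 0.156 and 0.162), without LDB2-/- replicate 2 (adjusted p = 0.0732) and with the replicate block (adjusted p = 0.0928), in a range of 0.0107 to 0.205 over the alternatives.

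The kinase gene Mylk (gene ID 107589, chromosome 16, 34745199 to 35002436), whose product phosphorylates the light chain encoded by Myl9, did not follow the others. Its level was 1.44 and 1.77 FPKM in wild type against 0.99 and 0.96 in LDB2-/-, from 768, 805, 424 and 524 counts. The log2 fold change was -0.39 (95% interval -0.90 to 0.11, adjusted p = 0.145), so the upper bound of the interval lies below the rise of Smtn. Scaling by library total alone called Mylk lower (-0.71, adjusted p = 0.029, in a range up to 0.498 over the alternatives). That scaling moved the median of all tested genes by a similar amount, from -0.01 to -0.33. The locus also makes telokin, a short protein from the end of the gene, whose reads fall in the same row.

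The last 2 members were also under 1 FPKM. Des (gene ID 13346, chromosome 1, 75360292 to 75368579), the muscle intermediate filament desmin, had 0 and 4 counts in wild type against 143 and 172 in LDB2-/-, or 0.85 and 0.80 FPKM in LDB2-/-. Its scaled count ratio was 100 (exact 95% interval 38.7 to 370.0, counting error only), and the fit without the filter called it higher (adjusted p = 0.00575, with 0.00254 to 0.00637 when each library was left out). The fitted log2 fold change of Des, 6.50, was 5.48 without wild type replicate 1 and 10.5 without replicate 2, which leaves a wild type count of 0. Actg2 (gene ID 11468, chromosome 6, 83512909 to 83536251), the enteric smooth muscle actin, had 0, 0, 9 and 6 counts. For counting error only, Actg2 was at least 6.36-fold higher in LDB2-/- against 3 counts over the wild type group, or at least 4.56-fold by the exact 95% limit. In the edgeR fit without the filter it was not called (adjusted p = 0.0996, with 0.0318 to 0.188 over the alternatives that kept all libraries).

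**Figure D2:**
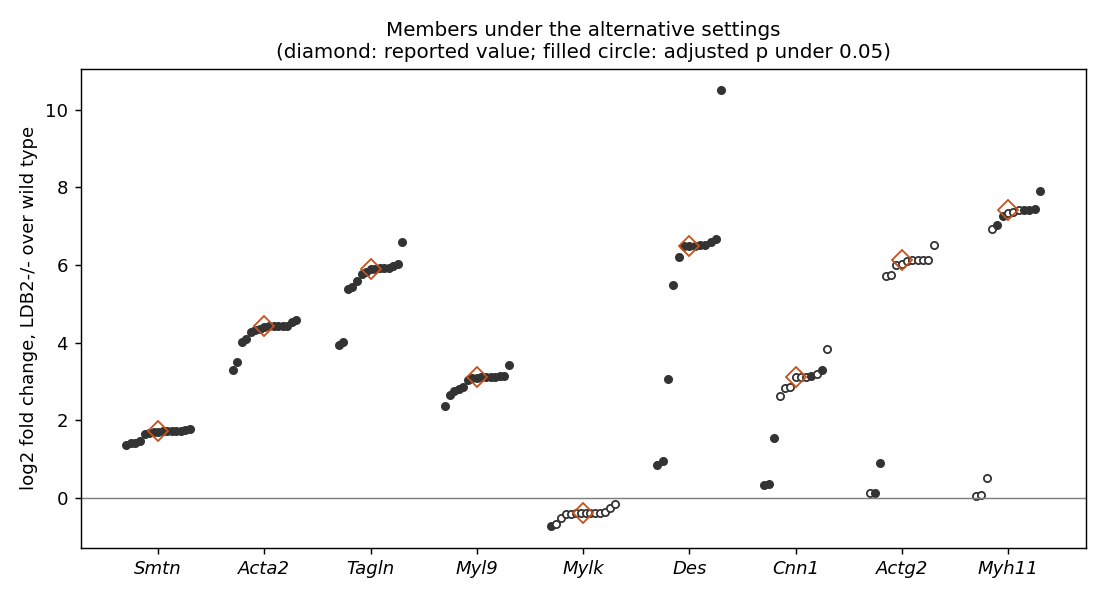
Log2 fold change of LDB2-/- over wild type for the 9 genes (diamonds, reported value; circles, alternative settings, filled where the adjusted p is under 0.05). Acta2, Tagln, Smtn, Myl9 and Des are called in every alternative drawn, while Myh11, Cnn1, Actg2 and Mylk cross the threshold in some, and the low values of Des, Cnn1, Actg2 and Myh11 come from fits on log2(FPKM + pseudocount).

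The order of the genes by FPKM also changed. In wild type it ran Smtn (25.2 ± 1.01, SD, n = 2), Myl9 (2.30 ± 0.62), Mylk (1.60 ± 0.23), Acta2 (1.20 ± 0.16) and Tagln (0.44 ± 0.25). In LDB2-/- it ran Smtn (67.0 ± 0.93), Tagln (21.1 ± 1.70), Acta2 (20.7 ± 1.3), Myl9 (16.1 ± 0.25) and Mylk (0.97 ± 0.02). Tagln and Acta2 did not differ beyond their spread in LDB2-/-, and the gap between Myl9 and Mylk in wild type was close to the SD of Myl9. The FPKM ratio of Tagln to Acta2 was 0.20 and 0.57 in wild type against 1.00 and 1.03 in LDB2-/-. The ratio of Myl9 to Acta2 went the other way, from 2.1 and 1.72 to 0.82 and 0.74. In all, the 9 genes summed to 30.3 and 31.3 FPKM in wild type against 124.6 and 129.6 in LDB2-/-, or 0.0102% and 0.0108% of all counts against 0.0338% and 0.0351%.

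Other genes of the contractile apparatus were taken from lists by role. In the list of thin filament and anchoring genes, 7 of 13 tested rose, 2 fell and 4 were not called, with a median log2 fold change of 0.41 beside -0.01 over all tested genes. Of all tested genes 28.4% were called higher and 28.8% lower. With library totals alone the list split into 5 higher and 4 lower. Pdlim7, an adaptor of actin stress fibres, rose by 3.26 (SE 0.21, adjusted p = 0.000213), from 6.66 and 4.86 FPKM to 37.8 and 45.4. Cald1, the gene of caldesmon, which restrains myosin on actin, rose by 2.30 and the tropomyosin gene Tpm1 by 1.85. The integrin chain Itgb1 fell by 0.76.

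The most smooth muscle restricted genes of that list were scarce, as Myh11 was. Lmod1, a filament nucleator of smooth muscle, had 0 and 0 counts in wild type against 0 and 20 in LDB2-/-. Itga8, an integrin chain of the arrector pili muscle, had 42 and 13 counts in wild type against 0 and 0 in LDB2-/-, where a count of 0 allows up to 0.060 and 0.050 CPM (counts scaled to library size with TMM), for counting error only. Synpo2, an actin-binding protein of muscle, had 10, 85, 0 and 11 counts. Lmod1, Itga8 and Synpo2 were chosen after their values were seen, and none of these 3 reached 1 FPKM in any library. Among untested genes of the list, the edgeR fit without the filter called Itga8 (adjusted p = 0.0466) and Ldb3 (adjusted p = 0.00746) lower. The same fit called Sorbs2 higher (adjusted p = 0.0124). In that fit 7 genes of the whole list were called higher and 4 lower.

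Of the 12 tested genes that signal to the contractile apparatus, 1 rose, 5 fell and 6 were not called. Their median log2 fold change was 1.78e-05, and 28.8% of all tested genes were called lower. Under library totals alone 0 of the list were higher and 6 lower, where 5096 of all 12400 tested genes were lower. The calmodulin gene Calm3 rose by 0.51 (adjusted p = 0.00859), a call lost with library totals alone (0.19, adjusted p = 0.141, the highest over its alternatives). Calm2 fell by 1.31, from 602.1 and 530.4 FPKM to 195.1 and 171.1. Ppp1r14a, an inhibitor of myosin phosphatase, fell by 1.40 (adjusted p = 0.0252), a call lost without wild type replicate 1 or 2 (adjusted p = 0.167 and 0.087) and without LDB2-/- replicate 1 (adjusted p = 0.0562). It passed the filter only through wild type, and the call was also lost without the filter (adjusted p = 0.0831) and with DESeq2 (adjusted p = 0.0507). Of the untested genes of this list, the potassium channel gene Kcnma1 had 165 and 123 counts in wild type against 10 and 0 in LDB2-/-. The edgeR fit without the filter called it lower (adjusted p = 0.0403). The smooth muscle potassium channel subunit Kcnmb1 had 4, 0, 0 and 0 counts. Cacna1c had 56, 71, 2 and 30, Adra1a 33, 55, 0 and 22, and Adra1b 3, 7, 0 and 0. Prkg1 had 4, 0, 26 and 0. Without the filter, 1 gene of the whole list was called higher and 5 lower.

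Of the 4 tested regulators of the programme, 3 fell and none rose, where 28.8% of all tested genes were called lower. Srf itself fell by 0.48 log2 units (SE 0.10, adjusted p = 0.0103), from 32.1 and 34.2 FPKM to 19.7 and 18.5. Mkl2, a myocardin-related coactivator of SRF, fell by 0.89 (adjusted p = 0.0163), a call lost without wild type replicate 2 (adjusted p = 0.0597). Klf4, a transcription factor known to repress smooth muscle genes and to promote epidermal differentiation, fell by 1.24, from 293.9 and 296.3 FPKM to 111.8 and 88.5. Mkl1, the other such coactivator, was not called (log2 fold change 0.23, adjusted p = 0.112). Myocd was not found by symbol among the measured genes, so it was not analysed here.

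**Figure D3:**
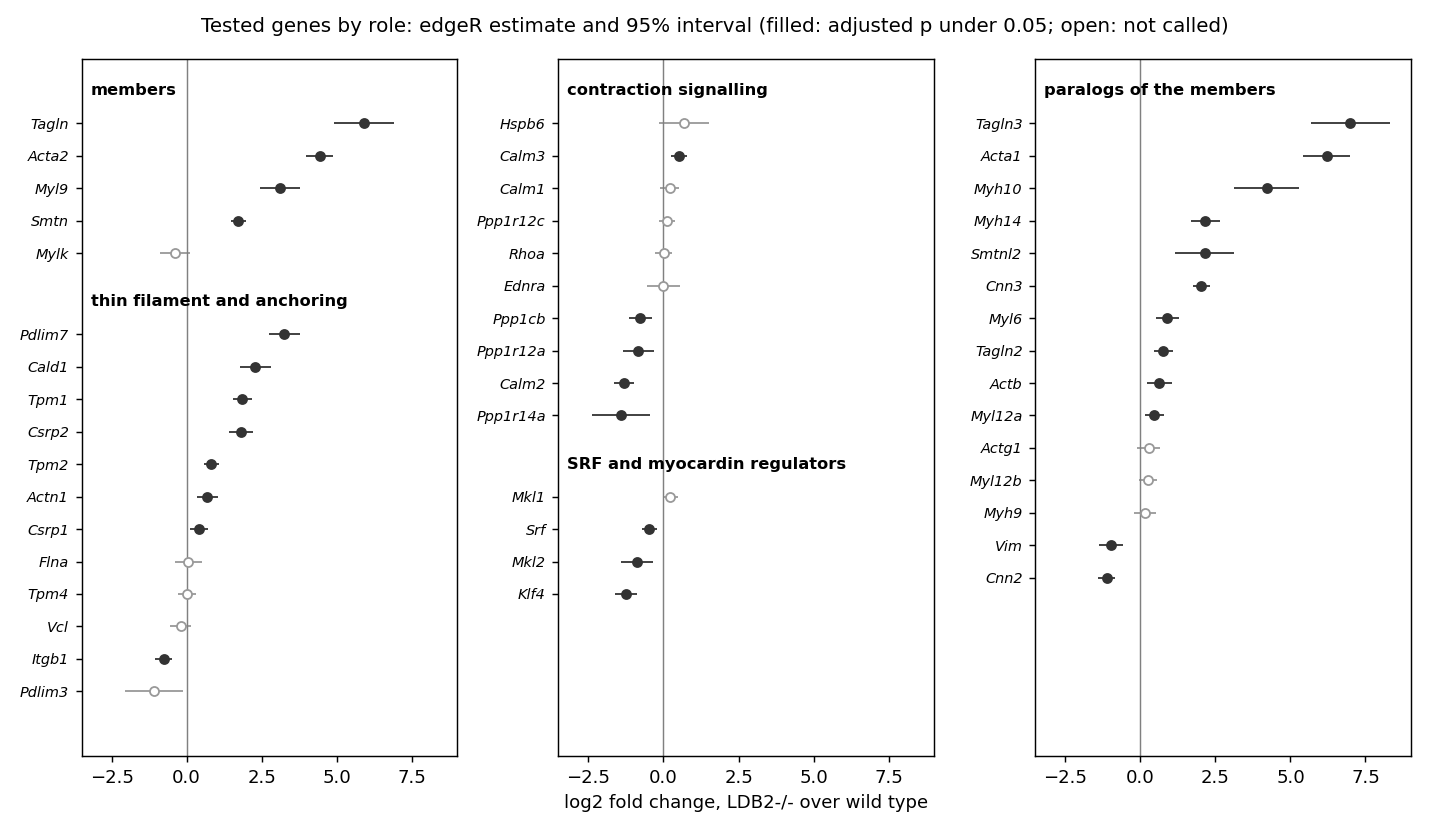
edgeR log2 fold change of LDB2-/- over wild type with its 95% interval for tested genes of each list, 3 of them not drawn, grouped by role (filled, adjusted p under 0.05; open, not called). Tagln, Acta2, Myl9 and Smtn lie to the right of 0, the SRF and signalling lists lie mostly at or left of it, and the paralogs Tagln3, Acta1 and Myh10 have the largest rises among the paralogs.

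The paralogs of the contractile genes were then compared within their families, per length. Of 15 tested, 10 rose, 2 fell and 3 were not called, against 28.4% of all tested genes called higher and 28.8% called lower. Tagln3, Acta1 and Myh10, 3 of those that rose, were under 1 FPKM in both wild type libraries and could be tested only through LDB2-/-. With library totals alone 8 rose and 2 fell, and with quantile-normalized FPKM the split was 6 higher and 4 lower. Tagln3, a transgelin known from neurons, moved with Tagln: it was at 0.15 and 0.62 FPKM in wild type against 38.4 and 41.3 in LDB2-/-, a rise of 7.0 log2 units (SE 0.53, adjusted p = 0.000316), and of 6.31 or 8.22 when wild type replicate 1 or 2, in that order, was left out. Its level in LDB2-/- was above that of Tagln in both libraries. Tagln2, the main transgelin of both genotypes, took 99.9% and 99.6% of the family's FPKM in wild type and 87.2% and 86.6% in LDB2-/-.

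Among actins the cytoplasmic genes Actb and Actg1 dominated, at 798.8 to 1058 FPKM in every library. Acta2 took 0.0686% and 0.0609% of the family's FPKM in wild type and 0.974% and 1.05% in LDB2-/-. Acta1, the skeletal muscle actin, rose by 6.21, from 0.23 and 0.15 FPKM to 13.8 and 10.9. Actb was called higher (0.63, adjusted p = 0.0200), a call lost with library totals alone (0.31, adjusted p = 0.0913), without wild type replicate 2 (adjusted p = 0.0584) and without LDB2-/- replicate 2 (adjusted p = 0.0965), and its direction reversed with quantile normalization (-0.09). Actg1 was not called (0.27, adjusted p = 0.180), and its direction reversed with library totals alone (-0.04). DESeq2 called Actg1 higher (0.28, adjusted p = 0.0177) and quantile normalization called it lower (-0.48, adjusted p = 0.0031). As a measure of shared sequence, 0.326% of the 50-base words of Acta2 transcripts occur in transcripts of other genes, Actg1 among them, 0.391% of those of Myh11 occur in other myosin transcripts, and none of the words of Actg2, Tagln, Cnn1, Smtn, Mylk, Des or Myl9 do.

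In the calponin family the most abundant member differed between genotypes. Cnn2 fell by 1.13 (adjusted p = 0.00076), from 124.3 and 116.7 FPKM to 43.4 and 44.9, and Cnn3 rose by 2.03 (adjusted p = 0.000156), from 35.0 and 32.2 to 109.9 and 110.4. The family's sum was 159.4 and 148.9 FPKM in wild type against 153.7 and 155.6 in LDB2-/-, and Cnn1 never exceeded 0.237% of it. Among class II myosin heavy chains, Myh10 rose by 4.21 (4.97 without wild type replicate 2) and Myh14 by 2.17, while Myh9, the main form in wild type, was not called (0.16, adjusted p = 0.412, with a negative direction under library totals alone, -0.16). Myl9 rose from 0.658% and 0.485% to 3.92% and 3.58% of the regulatory light chain FPKM. Of the intermediate filaments, Vim fell by 0.98, from 117.5 and 146.8 FPKM to 49.4 and 57.4, the opposite direction to Des.

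**Figure D4:**
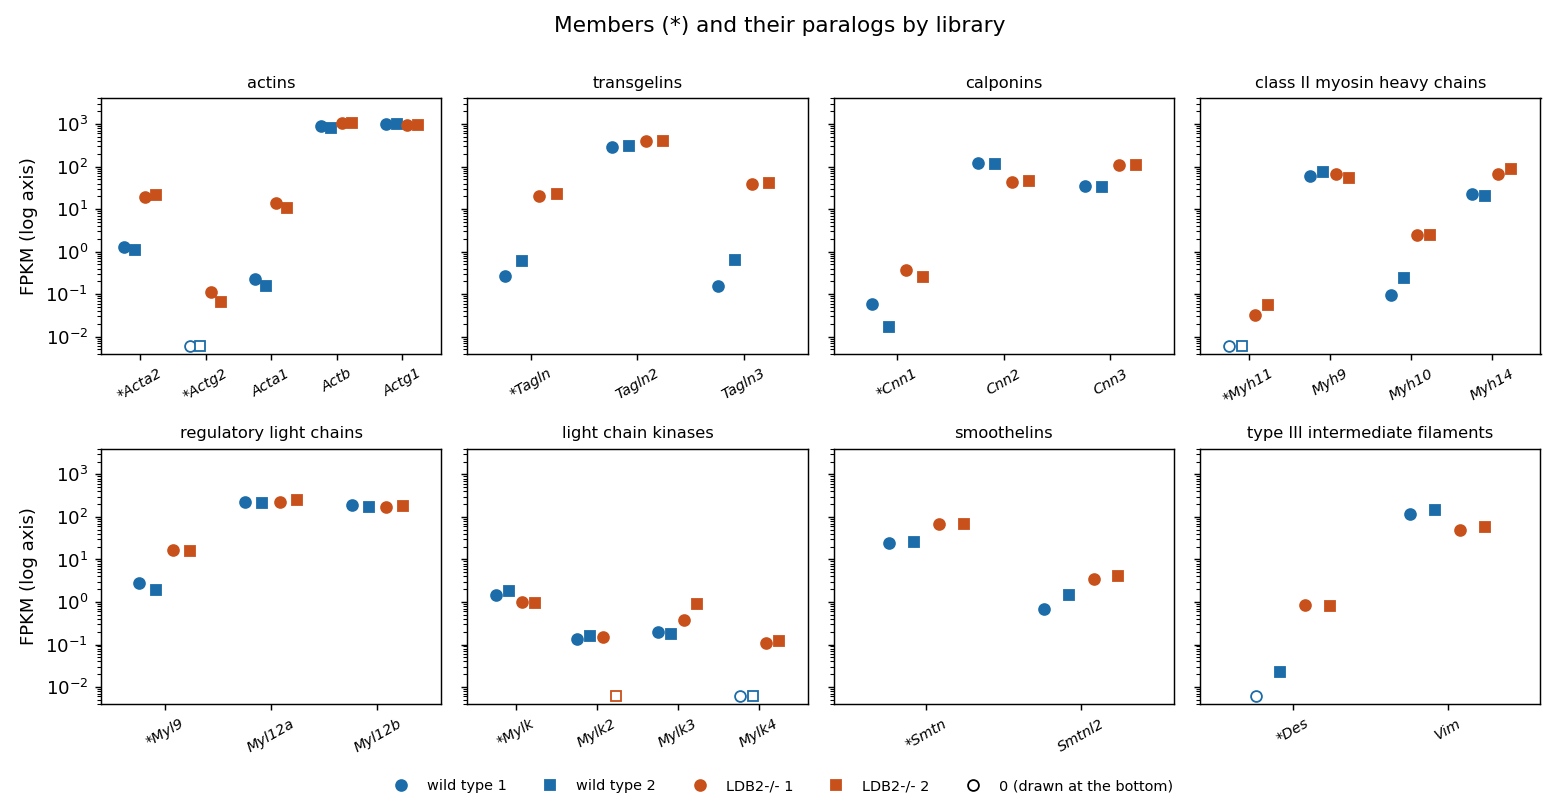
FPKM on a log axis of each contractile gene (marked *) and its paralogs, with 1 point per library (blue, wild type; orange, LDB2-/-; open symbols, 0). Acta2, Tagln and Myl9 rise toward but stay below the abundant forms Actb, Tagln2 and Myl12a, and Cnn2 and Cnn3 exchange places.

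Markers of other cell types that hold or adjoin contractile cells did not all move with the set. Over all tested genes 28.4% were called higher and 28.8% lower. The pericyte markers did not rise as a list, with a median log2 fold change of 0.05 over those tested. Of 8 pericyte markers, 4 were tested, with 1 higher (Mcam, 1.3) and 1 lower (Ndufa4l2, -1.86). Their summed level was 315.5 and 452.5 FPKM in wild type against 98.7 and 103.0 in LDB2-/-, most of it Ndufa4l2. The pericyte genes Rgs5 (14 and 26 counts in wild type), Kcnj8 (4 and 12) and Abcc9 (3 and 0) had 0 counts in both LDB2-/- libraries. Pdgfrb, also untested, went from 28 and 38 counts to 79 and 93. Of 9 endothelial markers 5 were tested and all 5 rose, led by Cldn5 (5.52) and Eng (4.12). Cldn5 rested on 0 and 8 wild type counts, and its rise was 4.47 or 10.4 when wild type replicate 1 or 2 was left out. All 5 tested endothelial markers were under 1 FPKM in both wild type libraries, so they could be tested only through LDB2-/-, and Kdr had 0 counts in both LDB2-/- libraries. The endothelial sum was 2.12 and 3.41 FPKM in wild type against 22.1 and 21.4 in LDB2-/-. 

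Of 8 fibroblast markers 6 were tested and all 6 rose, led by Dcn (3.47) and Fbln1 (1.61). The untested Pdgfra went from 142 and 62 counts in wild type to 92 and 48 in LDB2-/-. Lum, also untested, overlapped between genotypes, with 83 and 29 counts against 94 and 61. The fibroblast sum went from 24.2 and 19.2 to 68.2 and 75.7 FPKM. Of 8 dermal papilla and sheath markers 3 were tested and all 3 rose, led by Wnt5a (3.05) and Notum (2.82). Crabp1 could be tested only through LDB2-/-, and the untested Rspo3 went from 211 and 79 counts to 42 and 50. This list summed to 6.79 and 7.46 FPKM in wild type against 38.8 and 35.5 in LDB2-/-, where Wnt5a alone was at 29.6 and 25.9. Of 10 skeletal muscle markers 7 were tested and all 7 rose, 5 of them from under 1 FPKM in both wild type libraries, Acta1 and Tnnt3 (5.89, or 6.68 without wild type replicate 2) the most, with a sum of 7.48 and 5.60 against 48.9 and 43.6 FPKM. The part of any of these cell types in the rise of Acta2, Tagln, Smtn and Myl9 was not tested.

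Within the epithelium the inner root sheath markers, all 7 of which rose (Krt72 by 9.57 and Krt27 by 8.43, or by 8.73 and 7.80 without wild type replicate 1 and 11.7 and 9.57 without replicate 2), summed to 72.9 and 284.0 FPKM in wild type against 42400 and 45940 in LDB2-/-. Wild type library 2 was the higher of the pair there, as it was in FPKM for Tagln, Smtn, Mylk and Des but not for Acta2, Myl9 or Cnn1. All 6 basal keratinocyte markers fell, Col17a1 (-2.95) and Itga6 (-2.38) the most. Of the 6 suprabasal markers 5 fell, Krtdap (-3.09) and Krt10 (-3.03) the most, and 1, Ivl, rose (0.71, edgeR adjusted p = 0.00766). Whether the contractile genes that rose were expressed in epithelial or other cells was not tested.

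**Figure D5:**
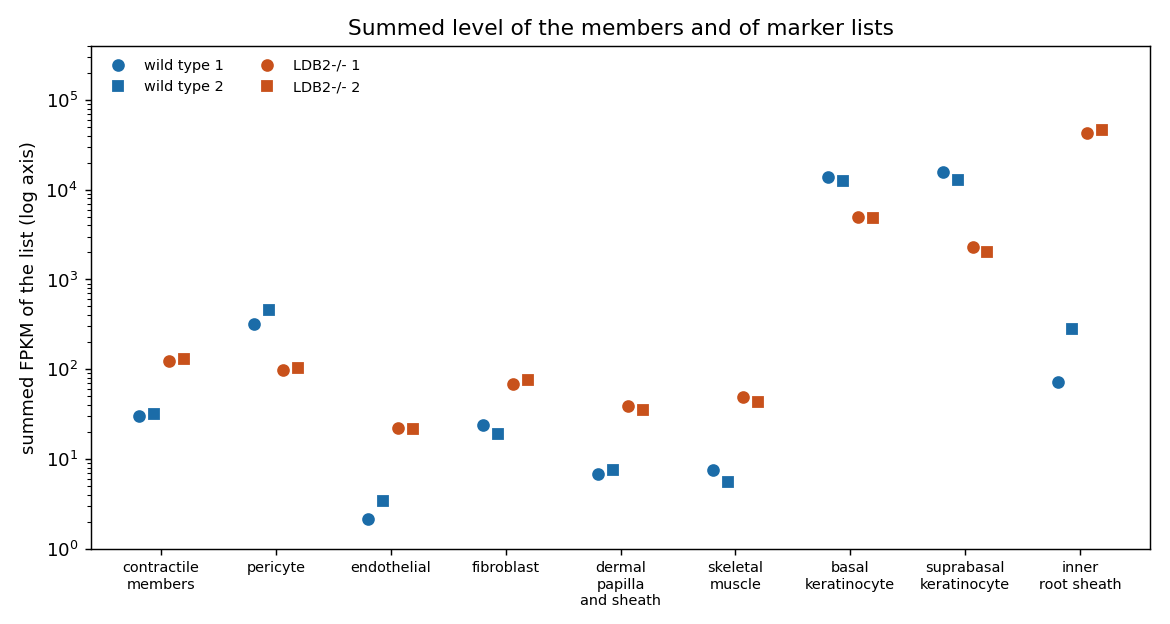
Summed FPKM, on a log axis, of the 9 contractile genes and of each marker list, with 1 point per library (blue, wild type; orange, LDB2-/-). The contractile sum rises from about 31 to about 125 FPKM. The endothelial, fibroblast, papilla and skeletal muscle sums rise too, most of the papilla sum in LDB2-/- being Wnt5a. The keratinocyte sums fall, and so does the pericyte sum, most of which is Ndufa4l2.

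By distance between centred log2 profiles over the 4 libraries, the tested genes outside these lists most like Acta2 were Hoxc13 (distance 0.0919), Cntfr (0.20) and Mlph (0.211), of 12308 compared. Hoxc13, a homeobox gene needed for hair, lay at 4.66 and 3.69 FPKM in wild type against 72.3 and 78.8 in LDB2-/-. Cntfr, a cytokine receptor subunit, lay at 2.0 and 2.01 and at 34.0 and 35.2, and Mlph, which links melanosomes to a motor, at 0.25, 0.22, 4.70 and 4.42. The genes nearest to Myh11 were Aqp11 (0.186), Edn2 (0.284) and Ttyh1 (0.331), and here the profile rests on 39 counts in all. Myh11 had 0 counts in both wild type libraries, so its values there are set by the 2 counts added before taking logs. With 4 libraries in 2 genotypes, likeness mostly reflects the size of the difference between genotypes.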

How the data were processed

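Per the file headers, the deposited table gives each library's read count per gene, as unscaled whole numbers, and its FPKM. It also carries a comparison made by the authors, with a signed linear fold (handled as a score) and its deposited adjusted p-value. Tools named in the submitters' processing notes were StringTie 1.3.4d, HISAT2 2.1.0 and bcl2fastq 1.8.4, with mm10 as the build. Read length, strand and settings are not given in the sources used here. Libraries were grouped by their titles.

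The genes, lists and rules were chosen with earlier results of these data known. Counts were tested with edgeR 4.0.16 (R 4.3.3), two-sided, on genes with FPKM of 1 or more in 2 libraries, with Benjamini-Hochberg adjustment over all of them. The script was tested on simulated data. Genes below the filter come from the same fit without it. Standard errors follow from the F statistic. Fold bounds use 3 counts over a group. Named genes were all members, up to 3 called genes per direction in each pathway list, 2 per marker list, 6 reference genes and the nearest profiles. Some of these are not reported here. Families, overlaps and low-count genes were added after seeing values. Alternatives used limma 3.58.1 and DESeq2 1.42.0. Figures used Python 3.11.15 with matplotlib 3.10.9.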

Additional observations from a re-analysis of the deposited data

How the results depend on the processing

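Acta2, Tagln, Smtn and Myl9 were called higher in each of the 15 alternatives, among them leaving out each library, where the number of called members was 4 throughout. Over all genes, calls higher in LDB2-/- fell from 3521 to 2248 with library totals alone, which also called 1 member, Mylk, lower. With the replicate block there were 6092 calls over all genes and 4 members, calls higher in the pathway lists went from 18 to 15, and of the genes refitted by name Myh11, Ppp1r14a and Actb lost their call. Same-numbered libraries did not deviate together (correlation -0.161 over 12400 genes and 2 pairs), and crossed pairs, added after seeing the data, gave 7269 calls and 4 members. Leaving out 1 library gave 5669 to 6702 calls. Directions reversed for Actb with quantile normalization (-0.0875), for Actg1 with library totals alone (-0.0438), limma on log2(FPKM + 1) or + 0.1 (-0.0454 for both) and quantile normalization (-0.479), and for Myh9 under the same settings (-0.161, -0.159, -0.161 and -0.0915). The cause was not tested. With 2 libraries per genotype and counts of 0 to 8 in wild type, depth limits what can be said of Myh11, Cnn1, Des and Actg2.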

Other observations

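Rows that touch the contractile loci gave values that belong to no comparison above. E130310I04Rik, a non-coding RNA whose locus overlaps 15820 bases of Mylk on the other strand, had 35 and 23 counts in wild type against 3 and 0 in LDB2-/-. The direction is that of Mylk, and without knowledge of strand in the counting the rows cannot be told apart fully. The other light chain kinases were too low for the filter. Mylk2 was at 0.13 and 0.16 FPKM in wild type against 0.15 and 0 in LDB2-/- (edgeR without the filter, adjusted p = 0.754). Mylk3 was at 0.20 and 0.18 FPKM in wild type against 0.38 and 0.90 in LDB2-/- (adjusted p = 0.0402 in the same fit), and Mylk4 at 0 and 0 against 0.11 and 0.12 FPKM. Mylk took 81.2% and 84.0% of the kinase family's FPKM in wild type and 60.7% and 48.4% in LDB2-/-.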
